A study of Mus musculus with 8 samples.

Results

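Noct and 8 other transcripts that read out the circadian clock were followed in 8 mouse livers. The genes, chosen by name from 40838 rows of the deposited count table, were Noct, Dbp, Tef, Hlf, Nfil3, Ciart, Bhlhe40, Bhlhe41 and Usp2. All 9 passed the filter on low counts, as did 17438 rows in all. They were proposed with the group difference of these libraries already known, Noct leading, so the levels by group are a description and carry no test. All livers came from C57BL/6 mice fed NASH diet, which produces fatty liver with inflammation, for 16 weeks. An adeno-associated virus was given after the first 7 weeks, leaving 9 weeks of feeding after it. It was AAV-TBG-Lpcat3 in 4 livers and AAV-TBG-eGFP in the 4 controls. TBG is a hepatocyte promoter, and Lpcat3 is an enzyme that remodels membrane phospholipids. No group off the diet or without virus was analysed here, and the labels used here give neither age nor the clock time of collection. They do not say whether samples were separate animals, so errors measure the spread between these samples.

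The circadian clock is a transcriptional feedback loop in which CLOCK and BMAL1 (gene Arntl) switch on genes through E-boxes, among them those for their own repressors, the PER and CRY proteins. In the liver the loop passes its rhythm to metabolism through output factors. DBP, TEF and HLF are PAR bZIP activators of D-box genes, many of them for drug, heme and bile acid metabolism, and NFIL3 (E4BP4) represses through the same element in the opposite phase. CIART (CHRONO), BHLHE40 (DEC1) and BHLHE41 (DEC2) repress CLOCK and BMAL1, and USP2 is a deubiquitinase with a rhythmic transcript. NOCT, nocturnin, is a phosphatase of NADP(H) related to the CCR4 deadenylases, with a transcript that peaks early in the night in mouse liver.

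Upstream sequence held clock elements in some of these genes and not in others. RefSeq windows of the assembly GRCm38.p6, the 250 bases before an annotated start, were at hand for 8 of 9 genes (9 windows, since Tef has 2). Both strands were searched for the E-box CACGTG, the variant E-box CACGTT, the D-box as TTATGTAA, TTACGTAA or TTATATAA, the ROR and REV-ERB element TAGGTCA, and the cyclic AMP element TGACGTCA. No searched motif contains another. Of 32851 windows of all genes, 6.02% held the E-box, 3.85% the variant, 1.43% a D-box, 2.23% the ROR element and 1.55% the cyclic AMP element. Of these genes, 3 held an E-box (Tef, Ciart and Bhlhe41), Nfil3 a ROR element and Hlf a cyclic AMP element. Below are Noct, whose values separated by group, Ciart and Tef, which rose and fell together across libraries, and Nfil3, the antagonist of Tef. Each is written 5′ to 3′ on the gene's own strand, with searched motifs in capitals.
Noct, chr3:51224197-51224446, plus strand: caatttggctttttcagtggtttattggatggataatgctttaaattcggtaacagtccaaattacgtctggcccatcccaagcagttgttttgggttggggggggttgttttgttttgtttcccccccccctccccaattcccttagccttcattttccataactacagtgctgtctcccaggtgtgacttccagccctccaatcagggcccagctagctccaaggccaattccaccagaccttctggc
Ciart, chr3:95882229-95882478, minus strand: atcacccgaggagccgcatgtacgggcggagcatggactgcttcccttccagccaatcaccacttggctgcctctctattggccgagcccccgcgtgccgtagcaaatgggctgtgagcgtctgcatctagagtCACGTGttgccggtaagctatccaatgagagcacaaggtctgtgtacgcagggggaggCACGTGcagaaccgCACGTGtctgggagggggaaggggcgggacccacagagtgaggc
Tef, chr15:81802423-81802672, plus strand: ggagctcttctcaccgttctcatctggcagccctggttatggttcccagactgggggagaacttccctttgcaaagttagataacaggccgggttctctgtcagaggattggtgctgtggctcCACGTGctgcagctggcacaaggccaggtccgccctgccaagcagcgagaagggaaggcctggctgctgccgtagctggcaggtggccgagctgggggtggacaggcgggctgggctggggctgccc
Nfil3, chr13:52981040-52981289, minus strand: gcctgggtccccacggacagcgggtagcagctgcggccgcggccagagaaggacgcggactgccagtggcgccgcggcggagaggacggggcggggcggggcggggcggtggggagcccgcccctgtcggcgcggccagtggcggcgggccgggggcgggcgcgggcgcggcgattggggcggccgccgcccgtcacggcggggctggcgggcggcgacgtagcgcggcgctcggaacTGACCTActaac
The E-boxes of Ciart began 116, 58 and 44 bases before the start, that of Tef 127 bases before it (138 in its other window) and that of Bhlhe41 153 bases before it. The element of Nfil3, read as TGACCTA on this strand, began 12 bases before the start, and that of Hlf 9 bases before it. The windows of Noct, Dbp and Usp2 had no match, which says only that these letters are not in those bases.

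The libraries held 22433625 to 25651874 counts, with 77 to 5436 counts for any of the 9 genes in any library. Levels are CPM, the count of a gene per unit of library size after scaling the libraries to each other, and differences are log2 fold changes of the Lpcat3 group over the eGFP group with their standard error (SE). Lpcat3 itself was at 274 to 465 CPM in the Lpcat3 libraries and 133 to 173 CPM in the eGFP libraries, in the direction of the labels. Its log2 difference was 1.25 (SE 0.17), and edgeR with adjustment over all genes did not call it (adjusted p = 0.164). A gene not called may therefore still differ. The code in each title begins with a number whose meaning the labels do not give. Codes 1290 and 1317 belong to eGFP replicates 1, 2 and 3 and Lpcat3 replicate 1, and codes 1344 and 1345 to eGFP replicate 4 and Lpcat3 replicates 2, 3 and 4. This division by code was chosen with earlier results of these data known, and it is uneven between groups.

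Noct (NCBI gene 12457) had 2.64 times the eGFP level in the livers given Lpcat3. Its level was 40.1, 57.3, 87.7 and 41.4 CPM in Lpcat3 replicates 1 to 4, and 30.4, 27.3, 13.8 and 14.2 CPM in eGFP replicates 1 to 4. Every Lpcat3 liver lay above every eGFP liver, with Lpcat3 replicate 3 the highest and eGFP replicates 3 and 4 the lowest. The means were 56.6 ± 22.1 and 21.4 ± 8.69 CPM (SD, n = 4 each), a log2 difference of 1.40 (SE 0.34). The direction was the same inside both divisions of the codes, as it must be in any split where the groups do not overlap. Within 1290 and 1317 the log2 difference was 0.83, with 1 Lpcat3 liver against 3 controls. Within 1344 and 1345 it was 2.06, with 3 Lpcat3 livers against 1 control. Without Lpcat3 replicate 3 it was 1.11 over the remaining 7 livers. In whole liver, a change in the share of a cell type and a change in RNA per cell cannot be told apart.

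Of the 9 genes, Noct was the 1 whose groups did not overlap. Of all genes tested 4.16% did not overlap, 1.93% with Lpcat3 higher and 2.24% with Lpcat3 lower. edgeR, with adjustment over all genes, called 0 of the 9 genes and 0.00573% of all genes. At an unadjusted p under 0.05 edgeR counted 1 of them, Noct, against 8.48% of all genes, DESeq2 called Noct and no other of the 9 (0.298% of all genes), and limma-voom called 0. The set was chosen on this contrast, so these counts support nothing about it.

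**Figure D1:**
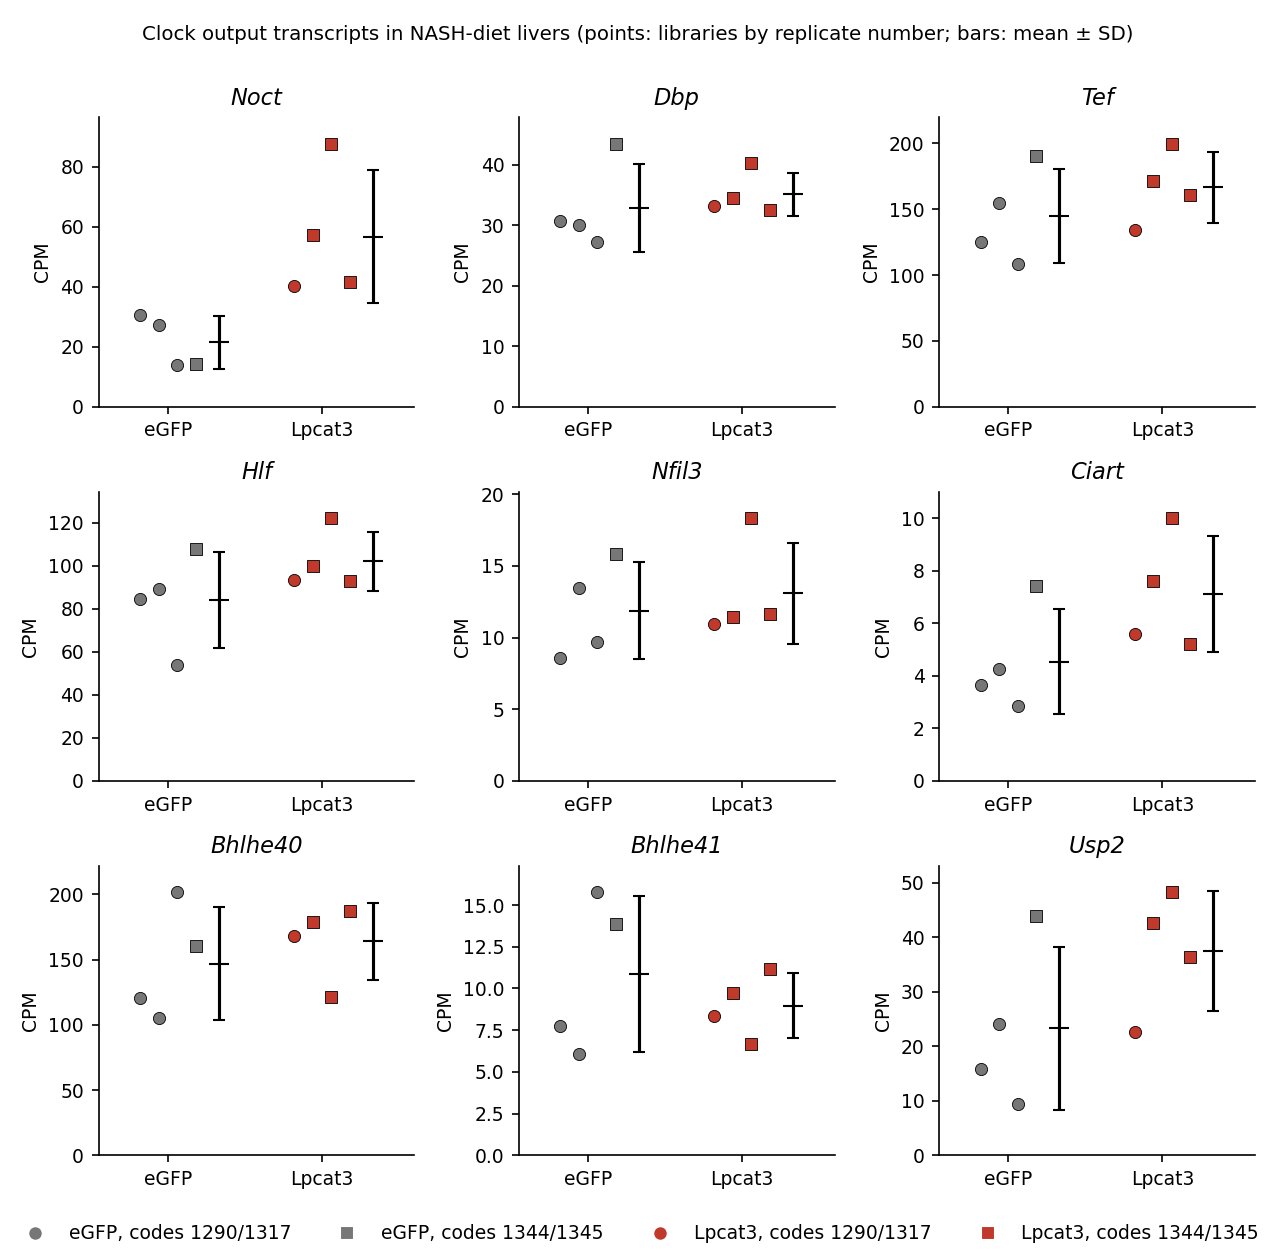
CPM of the 9 clock output genes (vertical axes, from 0) in 4 eGFP and 4 Lpcat3 livers; each point is 1 library, circles have codes 1290 or 1317 and squares 1344 or 1345, and bars are the mean ± SD. Noct separates by group, at 13.8 to 30.4 against 40.1 to 87.7 CPM, while Tef and Usp2 separate circles from squares.

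The PAR bZIP activators differed little between groups. Dbp (NCBI gene 13170), a strong cycler in mouse liver, was at 33.1, 34.4, 40.3 and 32.5 CPM in Lpcat3 replicates 1 to 4 and at 30.7, 30.0, 27.1 and 43.5 CPM in eGFP replicates 1 to 4. The highest liver was a control, and the groups overlapped. The log2 difference was 0.10 (SE 0.14), from 35.1 ± 3.58 and 32.8 ± 7.27 CPM (SD, n = 4 each). Its span overlaps Sphk2, which averaged 27.4 CPM, and with the strand setting of the counting unknown, reads of both genes may not be told apart. Its direction turned with library totals in place of TMM scaling.

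Tef (NCBI gene 21685) was at 134, 171, 200 and 161 CPM in Lpcat3 replicates 1 to 4 and at 125, 155, 109 and 191 CPM in eGFP replicates 1 to 4 (log2 difference 0.20, SE 0.18). Its levels did not overlap between the codes, with 109 to 155 CPM in the livers coded 1290 and 1317 and 161 to 200 CPM in those coded 1344 and 1345. Hlf (NCBI gene 217082) was at 93.3, 99.8, 122 and 93.1 CPM in Lpcat3 livers and 84.6, 89.3, 54.2 and 108 CPM in eGFP livers (0.28, SE 0.19). Its lowest level was in eGFP replicate 3 and its highest in Lpcat3 replicate 3. Nfil3 (NCBI gene 18030), the repressor at the same D-boxes, was at 10.9, 11.4, 18.4 and 11.6 CPM in Lpcat3 livers and 8.57, 13.4, 9.69 and 15.9 CPM in eGFP livers (0.14, SE 0.23). Lpcat3 replicate 3 stood above the other 7 livers, and without it the log2 difference was -0.07.

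Usp2 (NCBI gene 53376) spread most within groups. It was at 22.7, 42.7, 48.3 and 36.5 CPM in Lpcat3 replicates 1 to 4 and at 15.8, 24.1, 9.43 and 43.9 CPM in eGFP replicates 1 to 4. Livers coded 1344 and 1345 held 36.5 to 48.3 CPM and the others 9.43 to 24.1 CPM, without overlap. The group difference was 0.69 (SE 0.42) with all livers. It was 1.19 without eGFP replicate 4, the control with code 1345, 0.43 without eGFP replicate 3, the lowest library, and 0.20 with the code division as a covariate.

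Among the repressors of CLOCK and BMAL1, Ciart (NCBI gene 229599) was at 5.59, 7.60, 10.02 and 5.21 CPM in Lpcat3 livers and 3.65, 4.25, 2.86 and 7.43 CPM in eGFP livers. The difference was 0.64 (SE 0.31), with eGFP replicate 4 inside the Lpcat3 range. It was 0.98 without that library, 0.43 without Lpcat3 replicate 3 and 0.32 with the code division as a covariate. Bhlhe40 (NCBI gene 20893) was at 168, 179, 121 and 187 CPM in Lpcat3 livers and 120, 105, 202 and 160 CPM in eGFP livers (0.16, SE 0.21). Bhlhe41 (NCBI gene 79362), its paralog, was at 8.35, 9.72, 6.66 and 11.2 CPM in Lpcat3 livers and 7.74, 6.05, 15.8 and 13.9 CPM in eGFP livers. At -0.27 (SE 0.30) it was the 1 gene of the set with a lower Lpcat3 mean. Both DEC genes were highest in eGFP replicate 3, where Noct was lowest.

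Apart from Noct, no gene of the set kept a positive difference in both code divisions. Within 1344 and 1345 the other 8 genes ran from -0.62 (Bhlhe41) to -0.0042 (Bhlhe40) on the log2 scale, all below 0. Within 1290 and 1317 they ran from -0.11 (Bhlhe41) to 0.65 (Ciart). With the code division as a term in the edgeR fit, 5 of the 9 genes had a positive difference in place of 8, against 48.5% of all genes tested in the fit without it. Dbp, Tef and Nfil3 then turned, to -0.06, -0.03 and -0.08. Each division has a single library in 1 of its arms, so these values have no replicate check on that side. A positive difference in both divisions was not particular to Noct. Among the 11 core clock genes followed below, Per1 had it (0.57 within 1290 and 1317, 0.93 within 1344 and 1345). Per2 had it too (0.30 and 0.18), and the others did not.

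**Figure D2:**
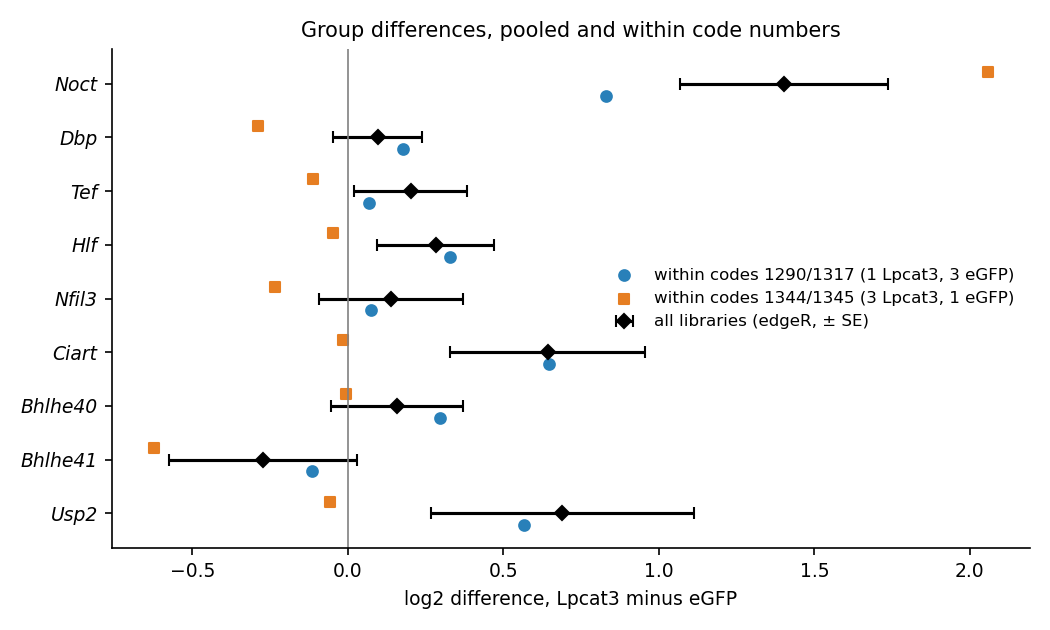
Log2 difference of Lpcat3 minus eGFP (horizontal axis) for the 9 genes; diamonds are the edgeR estimate over all 8 libraries with its SE, circles and squares the differences of mean log2 CPM within each code division. Noct lies right of 0 in all 3, from 0.83 to 2.06, and the squares of the other 8 genes lie left of 0.

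The core clock genes showed the same division by code. Of 11 genes, 9 did not overlap between the code divisions, 5 higher and 4 lower in 1344 and 1345, where 12.7% of all genes tested did not overlap (6.42% higher and 6.24% lower). The division was chosen with earlier results of these data known and is uneven between virus groups. Counts of genes that it separates are therefore a description and carry no test. Npas2, a partner of BMAL1 like CLOCK, was at 1.03 to 1.63 CPM in the livers coded 1290 and 1317 and at 0.144 to 0.353 CPM in the others. Arntl was at 5.30 to 6.62 against 2.78 to 4.84 CPM, Clock at 87.3 to 104.0 against 71.5 to 82.0 CPM and Nr1d1, which encodes the repressor REV-ERB alpha, at 86.8 to 102 against 48.6 to 77.1 CPM. In the other direction Per2 was at 33.6 to 48.8 against 61.3 to 80.4 CPM and Per3 at 40.9 to 62.5 against 76.8 to 101 CPM. The receptor gene Rora was at 177 to 211 against 226 to 239.9 CPM, Cry1 at 5.23 to 8.37 against 8.57 to 13.7 CPM and Nr1d2 at 144 to 169 against 173 to 192 CPM. Of the output genes, 2 of 9 did not overlap between the divisions, Tef and Usp2.

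The other 2 core genes overlapped. Cry2 was at 21.8 to 29.8 CPM in the livers coded 1290 and 1317 and at 28.5 to 38.9 CPM in the others. Per1, a repressor of the loop that also answers glucocorticoids, was at 51.2, 74.2, 90.3 and 44.0 CPM in Lpcat3 replicates 1 to 4 and at 36.7, 48.0, 23.4 and 34.8 CPM in eGFP replicates 1 to 4. Between the virus groups, edgeR called 0 of the 11 core genes (adjusted p 0.564 to 0.877), with 3 at an unadjusted p under 0.05 (8.48% of all genes). The median log2 difference of the 11 was 0.09, beside -0.01 over all genes tested, and was -0.02 with library totals and 0.0013 with the code division as a covariate.

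**Figure D3:**
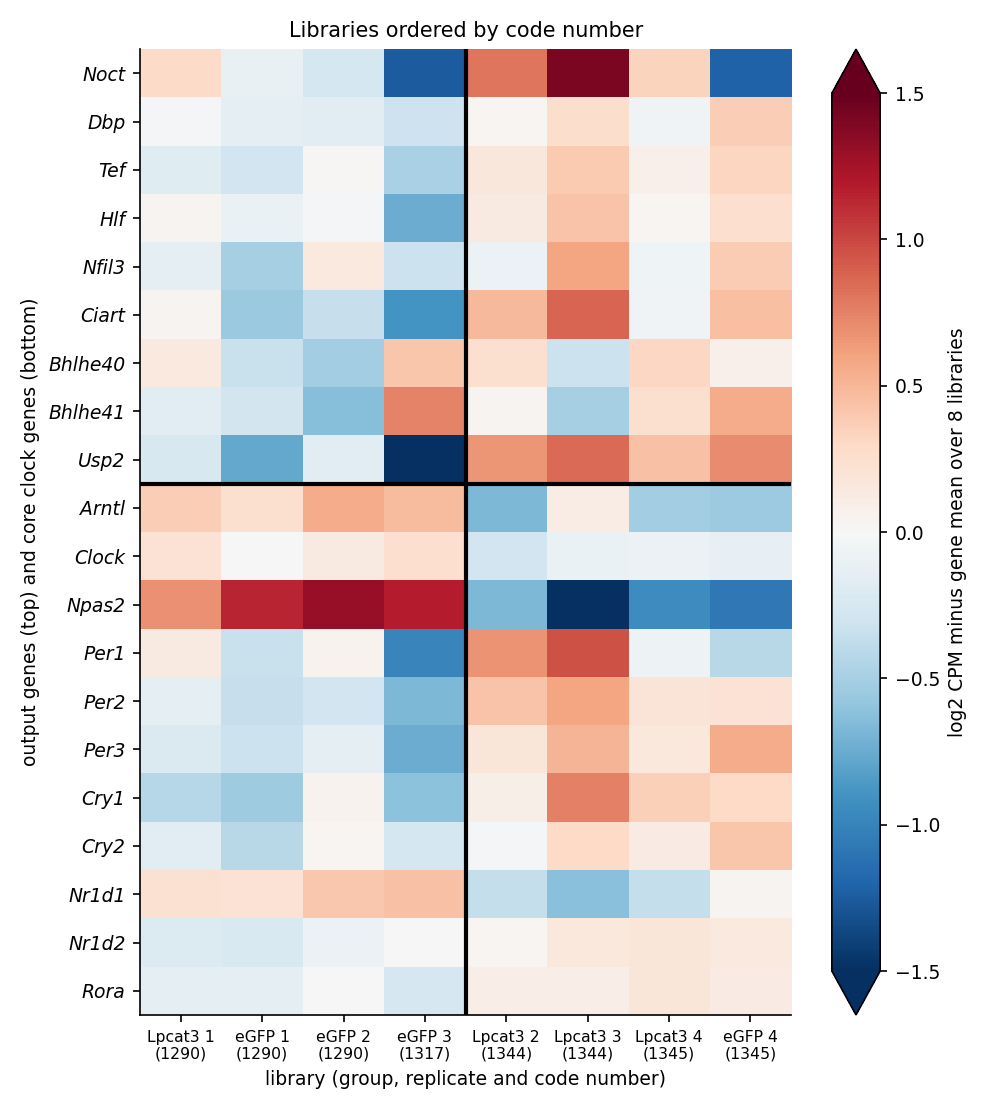
Log2 CPM of each gene minus its mean over 8 libraries (color), for the 9 output genes above the line and 11 core clock genes below it, with libraries ordered by code number. Npas2 changes color at the code boundary, from 1.03 to 1.63 CPM on the left to 0.144 to 0.353 CPM on the right, whereas Noct is low in eGFP replicates 3 and 4 on both sides.

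The rule that chose the genes did not use the variation between livers of the same group, and that variation was tested here. The genes and the code division were chosen with earlier results of these data known. Since the codes also divide livers of the same group, the exact p may not be independent of that choice. All 9 genes varied within groups by more than the median gene. Their SD of log2 CPM ran from 0.23 for Dbp to 0.74 for Usp2, the 54.6th and 97.0th percentile of 17438 genes, where the median was 0.21. Noct had 0.57, the 92.1st percentile. After the group means were removed, the 36 pairs were compared over the 8 libraries with an exact two-sided permutation test that reordered livers within each group (576 orderings) and adjusted over the 36 pairs. The orderings did not keep the code divisions apart, so a difference between codes shared by both genes of a pair enters the exact p. With values centred within code division, r alone was computed.

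In 4 pairs the transcripts rose and fell together. Tef and Usp2 had Pearson r = 0.98 (exact p = 0.00174, adjusted p = 0.0313, the smallest p the orderings can give being 0.00174) and Spearman rho = 1.0 (exact p = 0.00347, adjusted p = 0.0417). Bhlhe40 and Bhlhe41 had r = 0.96 (exact p = 0.00174, adjusted p = 0.0313) and rho = 0.98 (exact p = 0.00347, adjusted p = 0.0417). Dbp and Ciart had r = 0.95 (exact p = 0.00521, adjusted p = 0.0469) and rho = 0.86 (exact p = 0.0208, adjusted p = 0.0875), and Tef and Ciart r = 0.93 (exact p = 0.00521, adjusted p = 0.0469) and rho = 0.90 (exact p = 0.0104, adjusted p = 0.0536). Without the 2 livers farthest from the median of the first gene, r was 0.97, 0.94, 0.79 and 0.83 in this order, and with values centred within code division as well it was 0.94, 0.99, 0.89 and 0.85. With library totals in place of TMM scaling, r was 0.98, 0.95, 0.83 and 0.87 and 0 of the 36 pairs passed.

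Dbp, Tef, Hlf, Nfil3, Ciart and Usp2 had r between 0.71 and 0.98 in all 15 of their pairs, 0.50 to 0.98 with library totals. This group of 6 was picked after the values were seen and is given as a description. Such r were not particular to the 6 genes. Among 12646 genes ranked by r to Dbp after centring within group, Ciart was at rank 43 and Tef at 493. Usp2 was at rank 558, Hlf at 652 and Nfil3 at 1265. Nfil3 was among the 6 with positive r to Dbp (0.77), Tef (0.88) and Hlf (0.71), although its protein opposes theirs. These pairs of Nfil3 did not pass. Without the 2 livers farthest from the median of the PAR bZIP gene, r was 0.03 with Dbp, 0.87 with Tef and 0.76 with Hlf. Bhlhe40 and Bhlhe41 stood apart, with r below 0 in 11 of their 12 pairs with those 6 genes (-0.64 to 0.04). With values centred within code division as well, these r ran from -0.83 (Bhlhe40 and Hlf) to -0.34 (Bhlhe41 and Dbp).

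Noct had weaker r with the 6 genes than they had with each other, from 0.06 (Dbp) to 0.45 (Hlf). With values centred within code division as well, its r with them ran from 0.13 (Dbp) to 0.56 (Hlf). Among the 6 genes r was then 0.58 to 0.94. Of the 8 pairs with Noct, 0 passed. The steepest were negative, with Bhlhe40 at r = -0.88 (exact p = 0.0260, adjusted p = 0.0781; rho = -0.81, exact p = 0.0625, adjusted p = 0.178) and Bhlhe41 at r = -0.85 (exact p = 0.0486, adjusted p = 0.109; rho = -0.86, exact p = 0.0451, adjusted p = 0.148). Without the 2 livers farthest from the Noct median these were -0.82 and -0.84.

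**Figure D4:**
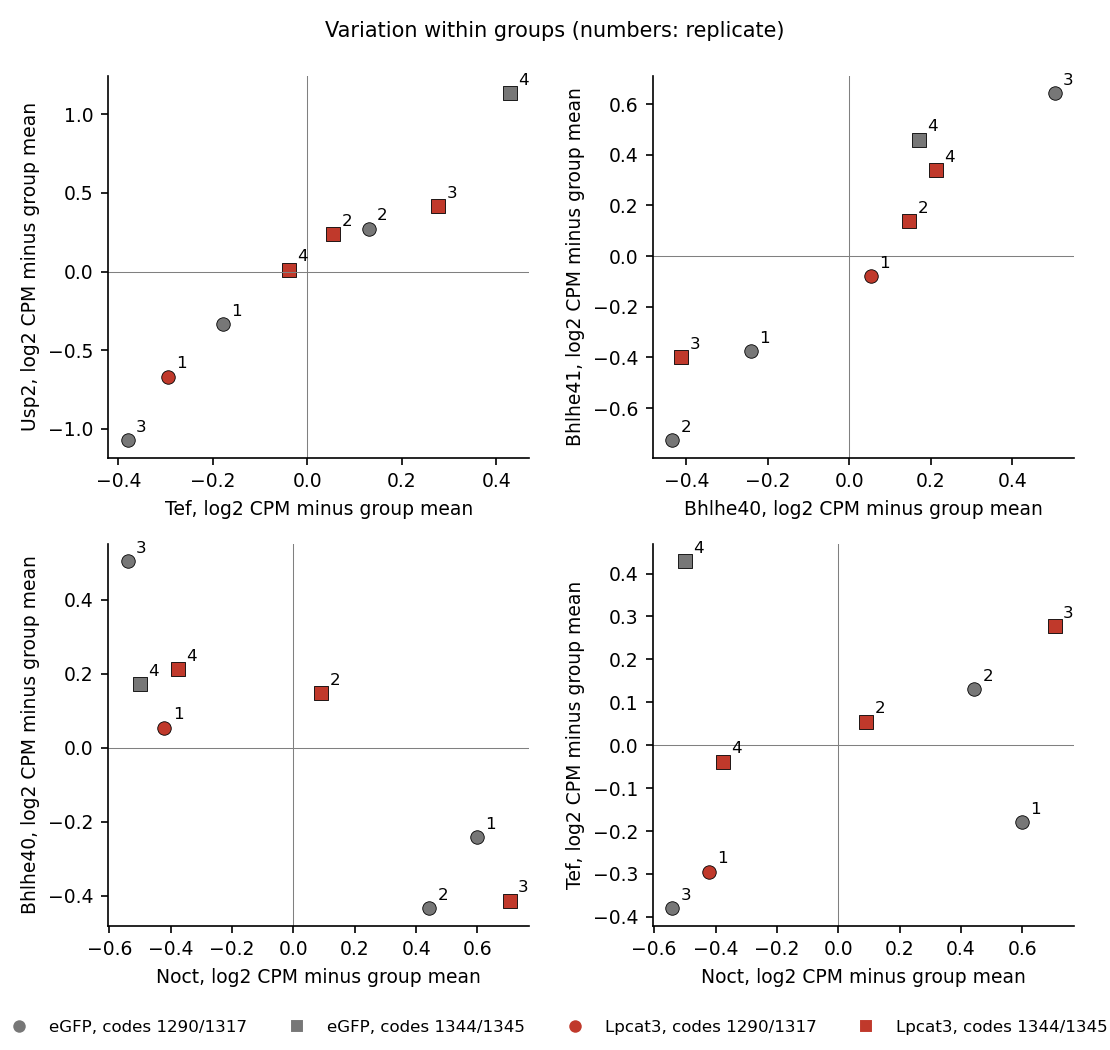
Log2 CPM minus the group mean for 4 pairs of genes (both axes), 1 point per library, numbered by replicate, colored by group and shaped by code division. Tef and Usp2 (r = 0.98) and Bhlhe40 and Bhlhe41 (0.96) lie near a rising line, Noct and Bhlhe40 (-0.88) near a falling one, and Noct and Tef (0.27) are scattered.

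The genes whose pattern came closest to Noct were not its neighbours in the output set. Over the 8 libraries and 12646 genes of at least 1 CPM, the highest Pearson r of log2 CPM were with Mbd1, a methyl-CpG binding protein (0.97), Zfp809 (0.97), Errfi1, a feedback inhibitor of EGF receptor signalling (0.96), Adam1a (0.96) and Hhex, a hepatocyte and endoderm transcription factor (0.96). Per1 was 16th with 0.92, while Hlf, at rank 1119 with 0.62, was the closest of the other output genes. These r include the group difference itself. After centring within group the closest to Noct were Cebpe (0.97), Zfp748 (0.97), Uimc1 (0.96), Mrpl17 (0.96) and Ermard (0.95), with Per1 at rank 118 (0.83). The closest to Dbp after centring were Trap1 (0.996), Cyp2d40 (0.99), Hpgd (0.98), Cog4 (0.98) and Adtrp (0.98), with Ciart at rank 43 (0.95) and Per3 at rank 100 (0.93).

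Genes downstream of, or related to, the output factors were examined as lists. Across 121 genes of 10 lists edgeR called 0, limma-voom 0 and DESeq2 1, and 21 had an unadjusted p under 0.05 in edgeR. Over all genes tested, 0.00573% were called by edgeR, 0.298% by DESeq2 and 8.48% had an unadjusted p under 0.05 in edgeR. Liver genes linked to the PAR bZIP factors had a higher Lpcat3 mean in 11 of 12 cases, with a median log2 difference of 0.43 and 0 called, and the median was 0.03 with the code division as a covariate. Alas1, the rate-limiting enzyme of heme synthesis, was at 1046 ± 279 CPM against 482 ± 137 CPM (SD, n = 4 each; log2 difference 1.12, SE 0.25; edgeR adjusted p = 0.564) and was the gene called by DESeq2 (adjusted p = 0.00670). Cyp7a1, the rate-limiting enzyme of bile acid synthesis, was at 525 ± 238 against 257 ± 114 CPM (edgeR adjusted p = 0.582) and Por, the electron donor of microsomal P450 enzymes, at 445 ± 124 against 272 ± 143 CPM (0.611). Por had 149 to 269.5 CPM in the livers coded 1290 and 1317 and 466 to 561 CPM in the others. Likewise 6 more of the 12 were higher there without overlap, beside 6.42% of all genes tested.

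Of 20 other rhythmic liver transcripts 16 had a higher Lpcat3 mean (median log2 difference 0.20, 0.03 with the code division as a covariate, 0 called in edgeR). Between the code divisions 9 of the 20 did not overlap, beside 12.7% of all genes tested. Lpin1, a phosphatidate phosphatase, was at 220.4, 206, 176 and 124 CPM in Lpcat3 replicates 1 to 4 and at 91.0, 117, 60.7 and 119 CPM in eGFP replicates 1 to 4, without overlap (edgeR adjusted p = 0.564). Coq10b, of coenzyme Q function, was at 41.1 ± 7.91 against 28.0 ± 6.65 CPM (0.564), and Mfsd2a, a lysophospholipid transporter, at 214 ± 26.1 against 152 ± 38.3 CPM (0.565).

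Of 16 deadenylases related to Noct and their partners, 11 had a higher Lpcat3 mean with a median of 0.08 (-0.04 with library totals), and 0 were called in edgeR. Library totals shift the median gene from -0.01 to -0.13. Tob1, an adaptor of the CCR4-NOT deadenylase, was at 188 ± 32.9 against 134 ± 27.4 CPM without overlap (edgeR adjusted p = 0.565), Cnot3 at 35.3 ± 2.14 against 30.9 ± 2.62 CPM (0.581) and Btg2 at 18.1 ± 3.62 against 22.9 ± 3.20 CPM (0.589). Among 11 genes of NADP(H) supply and use 8 had a higher mean (median 0.08, -0.04 with library totals, 0 called), with Nampt at 119 ± 22.2 against 90.0 ± 17.3 CPM (0.581), the pentose phosphate enzyme G6pdx at 9.49 ± 1.29 against 12.0 ± 2.53 CPM (0.597) and its partner Pgd at 36.6 ± 9.48 against 49.2 ± 13.1 CPM (0.630). Kinases and ubiquitin ligases of clock proteins had a lower mean in 8 of 9 cases, with a median of -0.06 and 0 called.

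Glucocorticoid response genes had a higher Lpcat3 mean in 8 of 11 cases (median 0.26, 0.24 with the code covariate, 0 called in edgeR). Errfi1 was at 1193, 1324, 1570 and 946 CPM in Lpcat3 replicates 1 to 4 and at 811, 841, 351 and 477 CPM in eGFP replicates 1 to 4 (edgeR adjusted p = 0.564), Tsc22d3 at 44.7 ± 14.3 against 23.7 ± 8.75 CPM (0.565) and Tat at 1090 ± 445 against 577 ± 234 CPM (0.570). In Errfi1, as in Noct, the groups did not overlap and eGFP replicates 3 and 4 were lowest, whereas in Tsc22d3 and Tat the groups overlapped. Fasting genes were higher in mean in 9 of 12 cases (median 0.20, 0.11 with the code covariate, 0 called; G6pc at 383 ± 151 against 194 ± 66.5 CPM, 0.564) and feeding genes in 5 of 8 (median 0.04, -0.08 with library totals and -0.04 in limma-voom, 0 called). Immediate early genes were lower in mean in 10 of 12 cases (median -0.49, -0.14 with the code covariate, 0 called), with Klf10 at 22.3 ± 6.11 against 33.8 ± 3.45 CPM (0.564), Junb at 12.0 ± 2.69 against 18.1 ± 4.17 CPM (0.564) and Egr1 at 14.5 ± 5.003 against 25.3 ± 8.399 CPM (0.569). The part of hormones, feeding or collection time in the Noct difference was not tested.

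The summed level of 8 hepatocyte markers was 73829 to 102308 CPM in Lpcat3 livers and 61904 to 90478 CPM in eGFP livers. Macrophage markers were lower in mean in 9 of 10 cases, summing to 306 to 396 against 419 to 662 CPM. No marker tested in any of the 6 lists was at 0 in a library. Endothelial markers were lower in 6 of 6, summing to 305 to 385 against 384 to 422 CPM, and lymphocyte and neutrophil markers in 7 of 7 tested of 8, summing to 27.7 to 48.0 against 42.04 to 93.5 CPM. Stellate cell markers were lower in 6 of 8 (473 to 779 against 636 to 769 CPM) and cholangiocyte markers higher in 4 of 5 (38.9 to 125 against 37.7 to 85.4 CPM). The part of these cells in the Noct difference was not tested.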

How the data were processed

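Whole liver RNA of 4 Lpcat3 and 4 eGFP samples was sequenced after ribosomal RNA removal, from stranded libraries read from one end, per the labels' protocols. The authors deposited 1 table of unnormalized counts with 40838 gene rows. The submitters' processing notes name bcl2fastq 2.20 and DESeq2, with GRCm39 as the build. Which aligner and counter were run, and with which strand setting, is not given in the sources used here. Columns were joined to samples by the codes in the titles. Symbols for 39397 rows came from a RefSeq table of GRCm38.p6, used for names and neighbours only, and the upstream windows from RefSeq at the same assembly.

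Genes were filtered with filterByExpr (minimum count 10), scaled by TMM and tested in edgeR 4.0.16 under R 4.3.3 with the robust quasi-likelihood test, adjusted by Benjamini-Hochberg over 17438 genes and called at 0.05. SEs come from that fit. Log2 CPM used a prior count of 2. The edgeR fit was tested on counts simulated with the same dispersion for every gene. The test of pairs, the rankings by r and the motif search were not tested in this way. Alternatives were other scalings and filters, DESeq2 1.42.0, limma-voom (limma 3.58.1), the replicate number as a block, the code division as a covariate and each library left out. Libraries differed by more than sampling noise (chi-square per degree of freedom at least 19.0 within groups). Genes were named by rule: all 9, the core clock, the 5 genes most like Noct or Dbp, and up to 3 per list in order of p. One gene of the planned core clock list was left out of it and is not reported here. Sphk2 was chosen after its values were seen. The genes, lists and code division were chosen with earlier results of these data known.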

Additional observations from a re-analysis of the deposited data

Results flagged for a closer look

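In 2 of 40 groups of 4 libraries (9 output and 11 core clock genes in each virus group), 1 library lay far from the others relative to the range, which chance gives in about 1 group in 20. Nfil3 in Lpcat3 replicate 3 was at 18.4 CPM, where the other Lpcat3 livers had 10.9 to 11.6 CPM. Npas2 in eGFP replicate 4, the control with code 1345, was at 0.248 CPM, where the other eGFP livers had 1.45 to 1.63 CPM.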

How the results depend on the processing

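The count of genes called between the virus groups, 1 in edgeR, was 3 with library totals, 2 without robust estimation, 51 with DESeq2, and 0 without a filter on low counts, with the replicate block or with the code division as a covariate. It ran from 0 to 7 on leaving out 1 library, with 7 without Lpcat3 replicate 1. Calls in the pathway lists rose from 0 to 1 with DESeq2 (Alas1). The pairs of output genes that passed fell from 4 to 0 with library totals, and stayed at 4 with a prior count of 0.5. Deviations of same-numbered livers from their group means correlated at -0.40 to 0.28. These values do not settle whether replicate numbers pair the samples, since some same-numbered livers fall in different code divisions. The replicate block called 0 of the 9 genes. Under 17 alternatives the Noct difference ran from 1.11 to 1.62 and kept its sign. With groups that did not overlap, leaving out a library could not have turned it. Over the fits that each left out 1 library, Dbp ran from 0.01 to 0.26, Tef from 0.09 to 0.36, Hlf from 0.12 to 0.43, Nfil3 from -0.07 to 0.31, Bhlhe40 from 0.03 to 0.35 and Bhlhe41 from -0.47 to -0.04. Over all 17 alternatives, the sign changed for Dbp in 2, Nfil3 in 2, Tef in 1 and Bhlhe41 in 1 (0.09 with limma-voom). For Hlf, Ciart, Bhlhe40 and Usp2 it changed in 0. With 4 livers a group and an SE of 0.34, edgeR did not call the Noct difference (adjusted p = 0.564), and a smaller one in Noct could not be resolved. The SEs of the other output genes ran from 0.14 (Dbp) to 0.42 (Usp2).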
